A study of Mus musculus with 13 samples.

Results

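The genes described here are 10 myokines, proteins that muscle releases, outside FGF21 and the TGF-beta family: Ostn, Fndc5, Apln, Il15, Il6, Lif, Metrnl, Bdnf, Fstl1 and Sparc. They were taken by gene symbol, with every non-control probe of each gene, which gave 12 probes on 13 spots out of 55681 probes and 34797 gene names on the array. RNA of whole gastrocnemius, a calf muscle, was hybridised to 2-colour Agilent 8x60K arrays, 1 array for each of 13 adult male C57BL/6J mice. The 7 UCP1 transgenic mice carried a UCP1 transgene in skeletal muscle, and the 6 wild-type mice were their littermates without it. Both groups received a purified low fat diet for 12 weeks, and the labels give an age of 12 weeks for the comparison. UCP1 is the mitochondrial protein of brown fat that lets protons back into the matrix, so that fuel is burned without making ATP. The promoter that drives the transgene is not given in the sources used here.

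Myokines act on the fibre that makes them, on neighbouring cells or on distant organs. Osteocrin, the product of Ostn, binds the clearance receptor of natriuretic peptides and so spares these peptides. Interleukin 6 and LIF signal through receptors that share the gp130 chain and reach the nucleus through JAK kinases and STAT3, with SOCS3 as the brake. FSTL1 and SPARC are matrix-associated glycoproteins that fibroblasts and other cells of a muscle also make. In RNA of a whole muscle, fewer cells of a type and less RNA per cell cannot be told apart.

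Values are log2 ratios of a mouse (Cy5) over a pool of samples (Cy3) that served every array, so a level compares mice for 1 probe and never 1 gene with another. The transgene itself checked the labels. The Ucp1 log2 ratio lay between -0.20 and 0.85 in the 7 transgenic mice, against -4.23 to -2.82 in 5 of the wild-type mice, while the array labelled wild type 4 read 0.45, within the transgenic range. The difference was 3.23 ± 0.50 (SE; limma adjusted p = 5.5e-05) with that array and 3.91 ± 0.20 (SE; limma adjusted p = 2.6e-11) without it, and member results are given with and without it. All 8 muscle fibre markers were well above background on all 13 arrays. Of the 17257 genes that passed the filter on dim probes, 33.0% differed between the groups at an adjusted p under 0.05.

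Of the 10 myokines, 8 passed the filter, and Il6 and Lif did not. Osteocrin mRNA rose in UCP1 transgenic muscle, while Apln, Il15, Metrnl, Bdnf, Fstl1 and Sparc did not pass the test. Fndc5 mRNA was called slightly lower, just inside the threshold (limma adjusted p = 0.04996). That call held in 4 of 12 alternative processings and in 4 of 13 fits that left out 1 array. Thus 1 member was called higher and 1 lower, where 16.8% of all tested genes were higher and 16.1% lower. The 2 called of 8 tested members are a share near or under that of all tested genes. The groups did not overlap for 1 member, Ostn, against 14.8% of all tested genes. The member differences had a median of 0.08 and a median size of 0.13 on the log2 scale, beside -0.0011 and 0.14 over all tested genes. Without the array labelled wild type 4, 1 member was higher and 0 were lower. Tested on every probe with no filter, 1 of the 12 member probes was called, where 12.4% of all probes were.

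**Figure D1:**
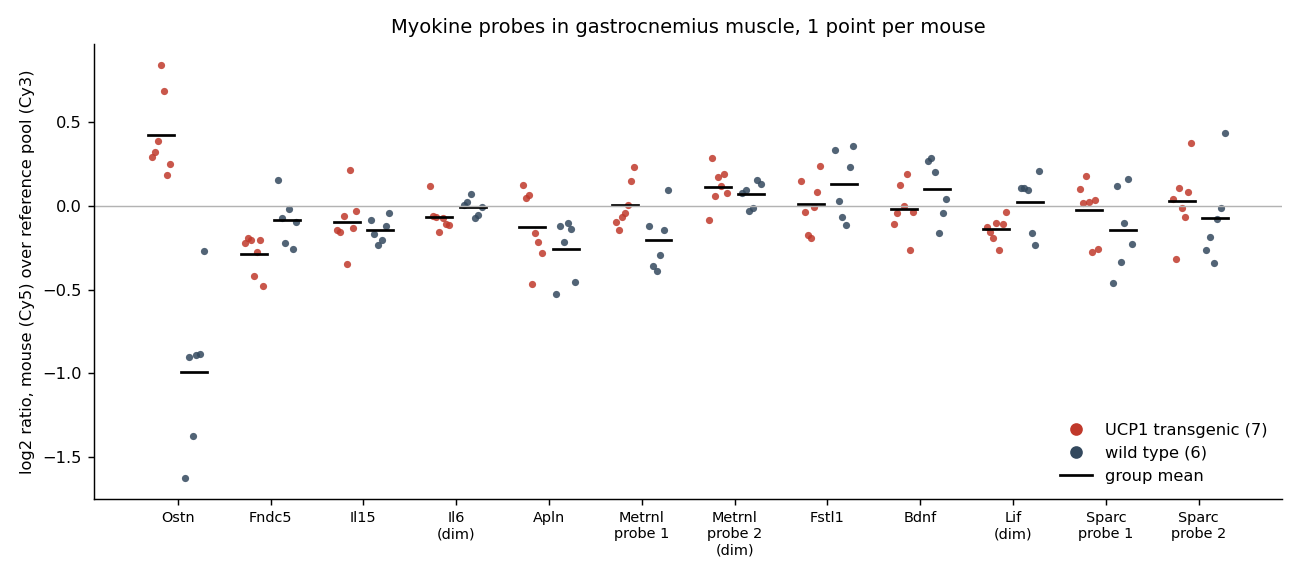
Log2 ratio of each mouse over the reference pool (vertical axis) for the 12 myokine probes (horizontal axis), with 1 point per mouse, UCP1 transgenic mice left of wild-type mice and a black line at each group mean. For Ostn all 7 transgenic points lie above all 6 wild-type points, and the groups overlap at every other probe. Probes marked dim were not well above background on at least 6 arrays.

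The probe sequences of the changed Ostn and of the muscle cytokine Il15, which was not called, follow. They are as the array files give them, in lower case because no base is singled out. The Ostn probe lies on the plus strand, and its ends are 22199 bases apart at chr16:27324816-27347014 (mm9) although it has 60 bases, so it crosses an exon junction. The Il15 probe lies on the minus strand at chr8:84858403-84858462 (mm9).
Ostn: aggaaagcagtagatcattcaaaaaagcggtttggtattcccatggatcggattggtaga
Il15: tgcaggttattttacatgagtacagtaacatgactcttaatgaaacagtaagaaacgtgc

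Ostn encodes osteocrin, also called musclin, a secreted peptide related to natriuretic peptides. Its log2 ratio was 0.29, 0.32, 0.39, 0.85, 0.69, 0.18 and 0.25 in transgenic mice 1 to 7, against -1.63, -0.90, -1.37, -0.89, -0.89 and -0.27 in wild-type mice 1 to 6. Every transgenic mouse lay above every wild-type mouse, and wild-type mouse 6 was the nearest to them. On the linear scale the spot signal spanned 1231 to 2933 (median 1680) in transgenic mice and 292 to 703 (median 535) in wild-type mice. The mean of Ostn was 0.42 ± 0.25 over transgenic mice (SD, n = 7) and -0.99 ± 0.47 over wild-type mice (SD, n = 6). It was 2.67-fold higher in transgenic muscle, a log2 difference of 1.42 ± 0.16 (SE; 95% interval 1.08 to 1.76; limma adjusted p = 1.49e-06).

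Each of the 4 slides held both groups, and Ostn was higher in transgenic mice on all of them, by 1.93, 1.53, 1.65 and 0.80 on slides 1 to 4. The difference was smallest on slide 4, which held wild-type mouse 6. The array labelled wild type 4 read -0.89 for Ostn, inside the range of the other wild-type arrays and below all transgenic ones, unlike its Ucp1 reading. Without it the difference was 1.44. Ostn is made by muscle fibres, and over the list of 8 fibre markers 1 was higher (Myh1, fast myosin, by 0.62) and 5 were lower, among them Acta1, skeletal actin, at -0.93. The mean log2 ratio of that list ran from -0.28 to 0.02 in transgenic mice and from 0.11 to 0.48 in wild-type mice. The array labelled wild type 4 gave the 0.11, and the other wild-type arrays lay between 0.17 and 0.48. The part of these markers in the Ostn result was not tested.

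**Figure D2:**
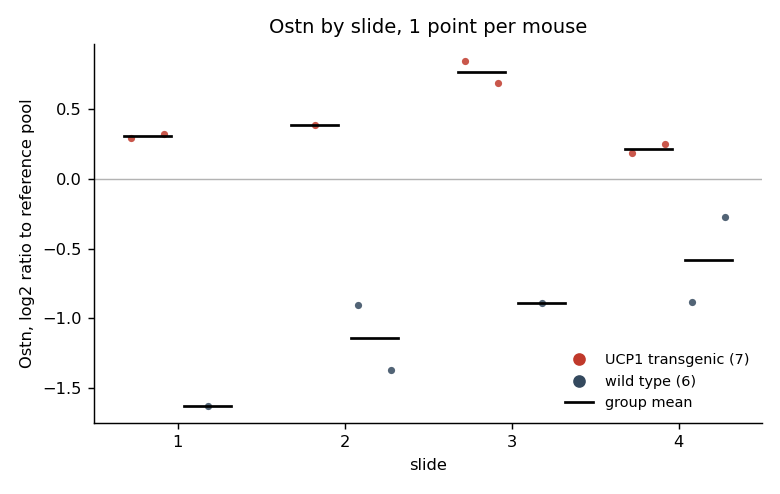
Ostn log2 ratio to the reference pool (vertical axis) on each of the 4 slides (horizontal axis), with 1 point per mouse, UCP1 transgenic left of wild type and black lines at the means within a slide. The transgenic points are above the wild-type points on each slide, by 0.80 on slide 4 and by 1.53 to 1.93 on the others.

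Fndc5 encodes the membrane protein from which irisin is cut. The Fndc5 probe (chr4:128821749-128821808, mm9) spanned -0.48 to -0.19 (median -0.22) in transgenic mice and -0.26 to 0.15 (median -0.08) in wild-type mice. The groups overlapped, with 3 of 7 transgenic mice below all wild-type mice. The mean of Fndc5 was -0.29 ± 0.12 over transgenic mice (SD, n = 7) and -0.09 ± 0.15 over wild-type mice (SD, n = 6), a 1.15-fold fall with a log2 difference of -0.20 ± 0.08 (SE; 95% interval -0.36 to -0.04). The limma adjusted p was 0.04996, just inside the threshold. With the array labelled wild type 4 left out, Fndc5 was at -0.19 with a limma adjusted p of 0.0896. The call was also lost without any 1 of transgenic mice 1, 3, 4, 5 and 7 or of wild-type mice 1, 2 and 6. Within slides the difference was -0.36, -0.06, -0.33 and -0.17, lower on all 4. Fndc5 lost its call under 8 of 12 alternative processings, and with each array centred on its median without loess its sign turned, to 0.07, where the median of all genes moved by 0.14.

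Apln encodes apelin, a peptide that endothelial cells, fat and muscle release. The Apln probe (chrX:45378593-45378652, mm9) was above background on 7 of 7 transgenic and 4 of 6 wild-type arrays. It spanned -0.47 to 0.13 (median -0.16) in transgenic mice and -0.52 to -0.10 (median -0.18) in wild-type mice. The ranges overlapped, although 3 transgenic mice lay above all wild-type mice. The difference was 0.13 ± 0.10 (SE; 95% interval -0.08 to 0.34; limma adjusted p = 0.335) and 0.16 without the array labelled wild type 4. Within slides it turned sign, with 0.61, 0.24, -0.21 and 0.05, and Agilent's own ratio gave 0.55, against 0.03 from the authors' table. White adipocyte markers had 6 of the 7 measured higher, and Lep did not pass the filter. The list's mean ran from -0.24 to 0.44 in transgenic and from -0.74 to 0.04 in wild-type mice. The array labelled wild type 4 alone gave the 0.04, inside the transgenic range as its Ucp1 reading was, and the other wild-type arrays lay between -0.74 and -0.49. Endothelial markers had 1 of 8 lower, with list means of -0.14 to 0.03 in transgenic and -0.18 to -0.01 in wild-type mice. Their part in the Apln value was not tested.

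Interleukin 15 is a cytokine that muscle makes and that sustains lymphocytes. Its probe was well above background on 7 of 7 transgenic and 6 of 6 wild-type arrays. Spot signals were low, at 78.6 to 152 in transgenic and 71.6 to 110 in wild-type mice. Il15 spanned -0.35 to 0.21 (median -0.13) in transgenic mice and -0.24 to -0.04 (median -0.14) in wild-type mice, and the wild-type range lay inside the transgenic one. The difference was 0.05 ± 0.08 (SE; limma adjusted p = 0.669), with a 95% interval of -0.11 to 0.21, and 0.04 without the array labelled wild type 4. It ran from 0.0049 in the authors' table to 0.14 with median centring without loess (-0.0044 relative to the shift of all genes). Its receptor chain Il15ra, named for its role, did not pass either, at 0.04 (limma adjusted p = 0.698), with its other probe at -0.06.

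Interleukin 6 is released by contracting muscle. The Il6 probe (chr5:30346367-30346426, mm9) was not well above background on any of the 13 arrays, with spot signals of 32.7 to 41.9 in transgenic and 33.6 to 40.1 in wild-type mice. Lif, a related cytokine, was measured by a probe at chr11:4172032-4172091 (mm9) that was likewise not well above background on any array, with signals of 32.5 to 52.7 in transgenic and 35.5 to 49.9 in wild-type mice. The log2 ratios of Il6 spanned -0.16 to 0.12 in transgenic and -0.07 to 0.07 in wild-type mice. Those of Lif spanned -0.27 to -0.03 in transgenic and -0.23 to 0.21 in wild-type mice. With both groups at background, neither gene has a usable fold, and a difference in these transcripts was not detectable here. Adjusted over all probes with no filter, the limma p was 0.636 for Il6 and 0.183 for Lif.

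Metrnl encodes meteorin-like, a secreted protein described in muscle and fat. Its brighter probe (chr11:121577358-121577417, mm9) spanned -0.14 to 0.23 (median -0.04) in transgenic mice and -0.39 to 0.09 (median -0.22) in wild-type mice. The groups overlapped, with 2 transgenic mice above all wild-type mice. The log2 difference was 0.21 ± 0.08 (SE; 95% interval 0.03 to 0.38), and its limma adjusted p of 0.0674 missed the threshold. With the slide as a block the difference was 0.20 with a limma adjusted p of 0.0230, and within slides it was -0.00, 0.31, 0.27 and 0.22. Without the array labelled wild type 4 it was 0.19 (limma adjusted p = 0.121), without transgenic mouse 2 the limma adjusted p was 0.0474, and without wild-type mouse 6 it was 0.0148. With median centring without loess it was 0.40 (0.26 relative to the shift of all genes; limma adjusted p = 0.152). The second Metrnl probe (chr11:121577755-121577814, mm9) was not above background on any array and gave 0.05 ± 0.06 (SE).

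Bdnf encodes brain-derived neurotrophic factor, which supports neurons and is also made by muscle. The Bdnf probe (chr2:109566961-109567020, mm9) was above background on 4 of 7 transgenic and 2 of 6 wild-type arrays. It spanned -0.26 to 0.19 (median -0.04) in transgenic mice and -0.16 to 0.29 (median 0.12) in wild-type mice, and the ranges overlapped. The difference was -0.12 ± 0.09 (SE; 95% interval -0.30 to 0.06; limma adjusted p = 0.318), and -0.17 without the array labelled wild type 4. Agilent's own ratio gave -0.36, which did not pass either.

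Fstl1 encodes follistatin-like 1, a glycoprotein released by muscle and heart. The Fstl1 probe (chr16:37836492-37836551, mm9) spanned -0.19 to 0.24 in transgenic mice (median -0.00) and -0.11 to 0.36 (median 0.13) in wild-type mice. Most mice of both groups lay in the same range, and 2 transgenic mice were below all wild-type mice. The difference was -0.12 ± 0.09 (SE; 95% interval -0.31 to 0.07; limma adjusted p = 0.352), and -0.17 without the array labelled wild type 4. Its sign turned with Agilent's own ratio (0.0086) and with median centring without loess (0.13, or -0.01 relative to the shift of all genes).

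Sparc encodes osteonectin, a collagen-binding matrix protein, and has 2 probes that both passed the filter. The brighter probe (chr11:55208939-55208998, mm9) spanned -0.27 to 0.18 (median 0.03) in transgenic mice and -0.46 to 0.16 (median -0.16) in wild-type mice. The groups overlapped, and the difference was 0.12 ± 0.10 (SE; 95% interval -0.10 to 0.33; limma adjusted p = 0.422), the same without the array labelled wild type 4. It was 0.05 without wild-type mouse 1, 0.26 in the authors' table and 0.48 with median centring without loess (0.34 relative to the shift of all genes), and none of these passed the test. The second probe (chr11:55208003-55208061, mm9) gave 0.10 ± 0.11 (SE). Of 8 fibroblast markers 2 rose, the collagens Col1a1 and Col1a2, by 0.68 and 0.37. The others did not pass, with Col3a1 at 0.19 and Pi16 at 0.14, but Mfap5 at -0.18, Dpt at -0.11, Pdgfra at -0.01 and Lum at -0.0055. The mean of the fibroblast list ran from -0.15 to 0.05 in transgenic and from -0.35 to 0.03 in wild-type mice, and its part in the Sparc value was not tested.

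**Figure D3:**
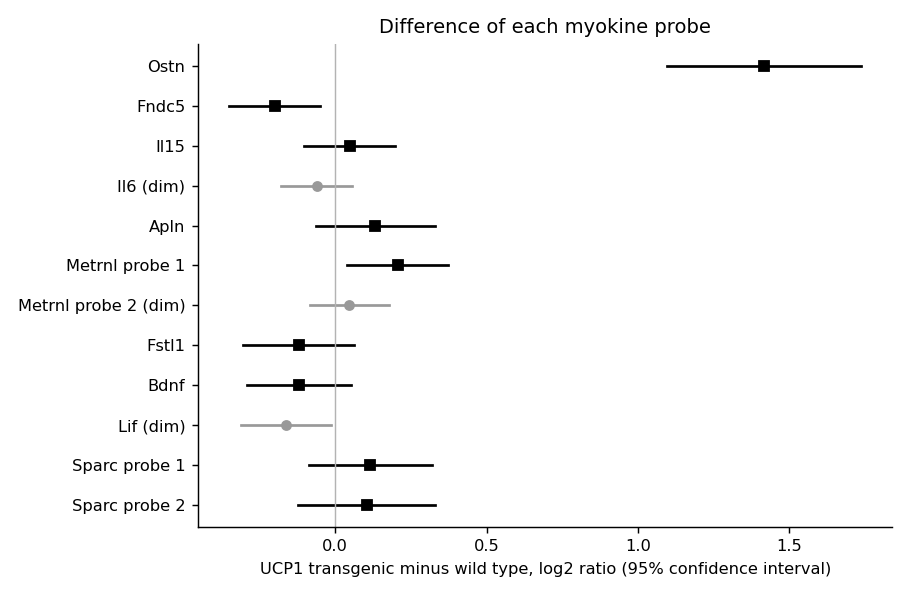
Difference of each of the 12 myokine probes, UCP1 transgenic minus wild type, as a log2 ratio on the horizontal axis with its 95% confidence interval, from the test of all 55681 probes without a filter. Black squares passed the filter on dim probes and grey circles did not. Ostn stands at 1.42, and the other probes lie between -0.20 and 0.21.

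The receptors of these myokines were tested as a list of 18 genes, of which 15 passed the filter. Of these, 4 rose, 2 fell and 9 did not pass the test, so 6 of 15 were called beside 33.0% of all tested genes, and the list's median difference was 0.04. Lifr, a receptor chain for LIF, spanned -0.44 to -0.07 (median -0.31) in transgenic mice and -0.04 to 0.69 (median 0.25) in wild-type mice. The groups did not overlap, and Lifr fell by 0.56 ± 0.10 on the log2 scale (SE; limma adjusted p = 2.0e-04), although its other probes gave -0.14 and -0.11. Chosen after their values were seen, the receptors that rose were Il6ra (0.25), the shared chain Il6st or gp130 (0.21), the neurotrophin receptor Ngfr (0.25) and the apelin receptor Aplnr (0.21), and the SPARC scavenger receptor Stab1 fell by 0.24. The call of Il6ra was lost without wild-type mouse 2 and without the array labelled wild type 4, and those of Il6st and Stab1 without wild-type mouse 5. Aplnr lost its call without any 1 of transgenic mice 2, 3, 5 and 7, wild-type mice 1, 3 and 5, and the array labelled wild type 4. Agilent's own ratio gave larger differences for Ngfr (1.09) and Aplnr (0.84), and with median centring without loess no receptor was called. The authors' table called neither Ngfr (0.18, limma adjusted p = 0.0653) nor Aplnr (0.22, limma adjusted p = 0.0794). Aplnr also lost its call with no filter (limma adjusted p = 0.0665), and Il6ra with Cy5 alone (limma adjusted p = 0.0550). The osteocrin clearance receptor Npr3 was at -0.06 (limma adjusted p = 0.627), and Npr1 was not above background on enough arrays to be tested. Schwann cells carry Ngfr, and 3 of the 5 Schwann cell markers rose, while Sox10 (0.23) and Mbp (-0.20) did not pass. The mean of that list ran from -0.02 to 0.25 in transgenic and from -0.38 to 0.15 in wild-type mice. The array labelled wild type 4 alone gave the 0.15, and the other wild-type arrays lay between -0.38 and -0.07. The part of this list in the Ngfr value was not tested.

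Most called genes of interleukin 6 family signalling were lower in transgenic muscle. Of 15 genes 12 passed the filter: 2 rose, 6 fell and 4 did not pass, so 66.7% were called beside 33.0% of all tested genes, with a median difference of -0.25. This list, like the other gene lists here, was chosen with earlier results of these data known. Its share beside that of all genes is therefore a description and no test. Jak2, a kinase bound to cytokine receptors, spanned -0.74 to -0.56 (median -0.63) in transgenic mice and 0.22 to 0.56 (median 0.38) in wild-type mice, with no overlap. It was 2.05-fold lower in transgenic muscle, at -1.03 ± 0.06 (SE; limma adjusted p = 2.50e-10). Ptpn11, the phosphatase SHP2, spanned -0.53 to 0.08 (median -0.26) in transgenic mice and 0.25 to 0.50 (median 0.42) in wild-type mice, and fell by 0.63 ± 0.09 (SE) without overlap. Socs3 spanned -1.24 to 0.05 (median -1.03) in transgenic mice and -1.05 to 1.55 (median 0.24) in wild-type mice. The groups overlapped and both were widely spread, and Socs3 fell by 1.13 ± 0.31 (SE; limma adjusted p = 0.00724). Cntfr, the receptor chain for ciliary neurotrophic factor, fell by 0.54 ± 0.10 (SE), with its other probe at -0.55. Chosen after its values were seen, Stat3 fell by 0.24, although its other probe gave -0.03. Cntf, the ciliary neurotrophic factor that Schwann cells make, rose by 0.37, and the kinase Tyk2 rose by 0.27, both also named after their values were seen. Under another scaling, each array was centred on its median without loess. Jak2 and Socs3 were still called lower there, and the other 4 lower genes were not. Stat3 read -0.0037 under that scaling, where the median of all genes moved by 0.14.

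**Figure D4:**
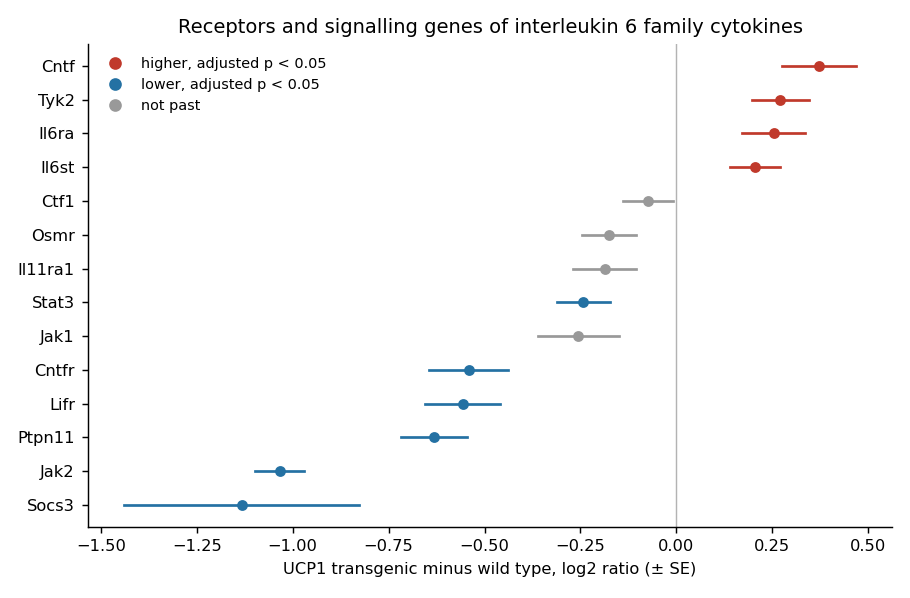
Differences of selected receptors and signalling genes of the interleukin 6 family, UCP1 transgenic minus wild type, as log2 ratios (horizontal axis) with their standard errors. Red points were higher and blue points lower at an adjusted p under 0.05, and grey points did not pass. Socs3 (-1.13) and Jak2 (-1.03) stand lowest and Cntf (0.37) highest.

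Among 22 paralogues of the myokines, 11 passed the filter, and 2 rose, 3 fell and 6 did not pass, which is 45.5% called beside 33.0% of all tested genes, with a median of -0.10. Metrn, the neural paralogue of Metrnl, spanned -0.73 to -0.34 (median -0.49) in transgenic mice and 0.07 to 0.35 (median 0.15) in wild-type mice. Metrn fell by 0.69 ± 0.07 (SE; limma adjusted p = 4.42e-07) with no overlap, while Metrnl was at 0.21. Sparcl1, a matrix paralogue of Sparc, fell by 0.38 and Spock2, another, rose by 0.38; the neurotrophin Ntf5 fell by 0.27 and Fstl3, which binds activins, rose by 0.23. These 4 were named after their values were seen, and 2 of their calls rested on single arrays. That of Ntf5 was lost without any 1 of transgenic mice 4 to 7 and wild-type mice 2, 5 and 6. That of Fstl3 was lost without any 1 of transgenic mice 1, 2 and 5, wild-type mouse 2 and the array labelled wild type 4.

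Of 20 other secreted factors of muscle 16 passed the filter, and 2 rose, 1 fell and 13 did not pass, a share of 18.8% called beside 33.0% of all tested genes, with a median of 0.06. Ccl2, the monocyte-attracting chemokine, spanned -0.93 to -0.44 (median -0.81) in transgenic mice and -0.78 to 0.44 (median -0.11) in wild-type mice. The groups overlapped, and Ccl2 fell by 0.60 ± 0.15 (SE; limma adjusted p = 0.00374). Macrophage markers, of which 1 of 6 measured was lower, had list means of -0.28 to -0.09 in transgenic and -0.30 to 0.25 in wild-type mice, and their part in the Ccl2 value was not tested. The matrix proteoglycan Ogn (0.31) and the chemokine Cxcl12 (0.37, with its other probe at -0.03) rose, both named after their values were seen.

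Of 17 upstream regulators and proprotein convertases 15 passed the filter, and 1 rose, 2 fell and 12 did not pass, so 3 of 15 were called, beside 33.0% of all tested genes, with a median of -0.04. Ppargc1a, the coactivator linked to Fndc5 in exercise, was at -0.04 ± 0.16 (SE; limma adjusted p = 0.882), with its other probe at 0.16. Foxo1, a regulator linked to Ostn, was at -0.22 ± 0.16 (SE; limma adjusted p = 0.304), and the convertase Furin at -0.12. The called genes were named after their values were seen. The kinase Akt1 rose by 0.26, its paralogue Akt2 fell by 0.47, and the muscle transcription factor Mef2c fell by 0.20. Mef2c read 0.03 with median centring without loess, where the median of all genes moved by 0.14. That scaling called no gene of this list, of the paralogues or of the other secreted factors.

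**Figure D5:**
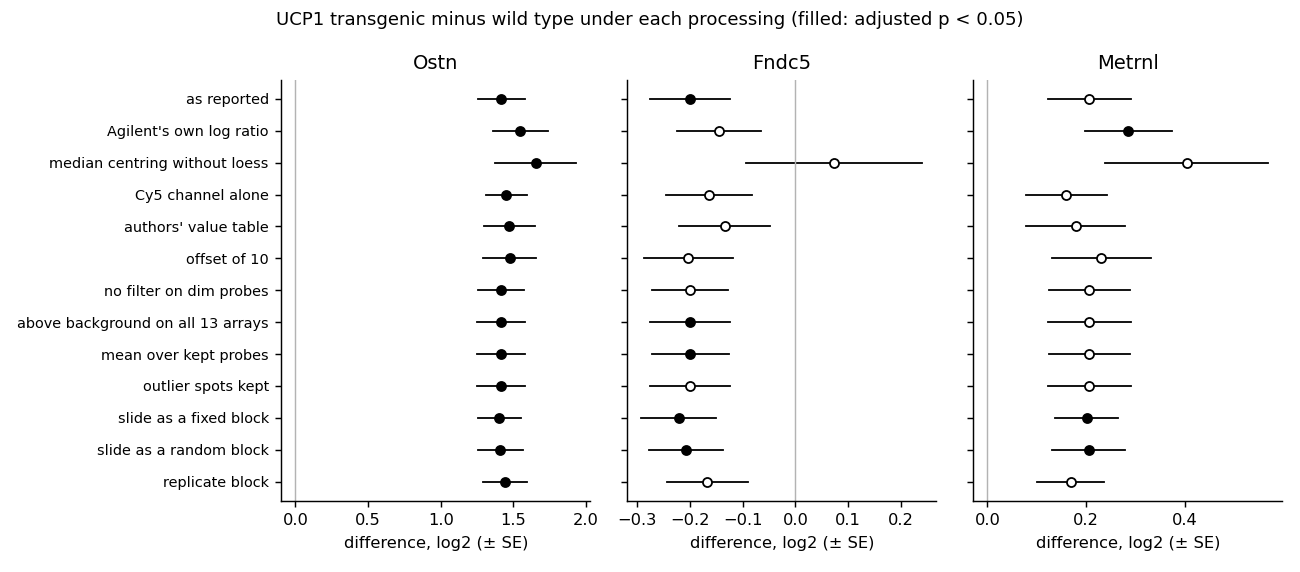
Difference of Ostn, Fndc5 and Metrnl, UCP1 transgenic minus wild type, as log2 with standard errors (horizontal axes) under the processing reported and each of 12 alternatives (rows). Filled points passed at an adjusted p under 0.05. Ostn was filled in every row, at 1.40 to 1.65, while Fndc5 and Metrnl were filled in some rows.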

How the data were processed

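The deposited scanner files hold, per the file headers, spot and background intensity of both channels, flags with other values and a log10 ratio, written by Agilent Feature Extraction 10.5.1.1. Per the labels, 200 ng of RNA of each mouse was used, with a pooled reference in Cy3 and no dye swap. The authors' deposited value table (25583 rows) was taken as log2 intensity on a Cy5-like scale: each column had a median of 7.58 and correlated at 0.983 to 0.991 with that array's processed Cy5 signal in log2 units (0.974 to 0.983 with Cy3). Its normalization is not given in the sources used here, and it served as an alternative.

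Signals were corrected by normexp (offset 50) and normalized by loess within arrays with limma 3.58.1 in R 4.3.3. The 3671 control spots of 62976 and outlier spots were left out, and no spot was saturated. The filter kept 22716 of 55681 probes (40.8%), those flagged well above background in Cy5 for 6 or more of 13 arrays (20643 to 24036 probes per array), and the brightest probe stood for each of 17257 genes. Groups were compared by limma with Benjamini-Hochberg adjustment over all genes. The number of arrays limits the precision. P-values measure the spread between mice, which the labels call individual. Simulated data tested the steps. All arrays carry 1 scan day, and slide was tried as a block. Probe positions are those of the files (mm9).

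The members and gene lists were chosen with earlier results of these data known. Named genes are all members, Ucp1, from each list the called genes with a difference of at least 0.5 (up to 6), and the 3 genes most like Ostn, Fstl1 and Sparc. Other list genes named fall outside that rule and were picked with values already known, including the receptors Npr1, Npr3 and Il15ra and the regulators Ppargc1a, Foxo1 and Furin, named for their role. Apela was not found by that symbol. Some list members are counted but not reported here by name. Marker lists were compared by their mean log2 ratio with an exact two-sided permutation test over the 13 arrays, adjusted over 9 lists. The smallest p it allows is 5.83e-04. The difference was -0.37 for muscle fibre (exact adjusted p = 0.00262), 0.67 for white adipocyte (0.00874), -0.24 for satellite cell markers (0.00262), of which 3 of 5 were measured and 1, Chrdl2 (-0.61), was lower while Pax7 (-0.09) and Cdh15 (-0.01) did not pass, and 0.23 for Schwann cell markers (0.0328). It was 0.13 for fibroblast, 0.07 for endothelial, 0.06 for smooth muscle and pericyte, -0.14 for macrophage and 0.09 for T cell markers, with exact adjusted p of 0.177 to 0.205.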

Additional observations from a re-analysis of the deposited data

Results flagged for a closer look

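In 26 groups of 6 or 7 mice tested for a sample far from the others, 2 samples stood out, and chance alone gives about 1 in 20. The array labelled wild type 4 had a Ucp1 log2 ratio of 0.45, where the nearest other wild-type array read -2.82. Transgenic mouse 1 had an Il6 log2 ratio of 0.12, where the nearest other transgenic array read -0.06, from a probe at background level on all 13 arrays.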

How the results depend on the processing

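Ostn kept its direction and passed in all 12 alternatives (1.40 to 1.65) and all 13 fits that left out 1 array (1.29 to 1.56), and so did Ucp1 (2.99 to 3.99, and 2.97 to 3.91). Fndc5 lost its call with Agilent's own ratio (-0.14), Cy5 alone (-0.16), the authors' table (-0.13), an offset of 10 (-0.20), no filter (-0.20), outlier spots kept (-0.20) and the replicate block (-0.17, adjusted p = 0.121), so that the lower members numbered 0 in each. Median centring without loess moved the median of all genes by 0.14. Fndc5 read 0.073 there and Fstl1 0.13, which relative to that shift are -0.07 and -0.01, and the lower members again numbered 0. It called 1305 genes (79.8% of them higher) in place of 5691 (51.1% higher). In the lists it left 0 higher and 0 lower, except 1 higher and 2 lower in interleukin 6 family signalling. Fstl1 also changed sign with Agilent's ratio (0.0086). Metrnl passed with Agilent's ratio (0.29), the slide as a fixed block (0.20) and as a random block (0.21), which made 2 members higher in each. Agilent's ratio called 2 regulators higher. Leaving out 1 array gave -0.23 to -0.15 for Fndc5, -0.0025 to 0.091 for Il15, 0.08 to 0.19 for Apln, 0.17 to 0.27 for Metrnl, -0.17 to -0.07 for Fstl1, -0.17 to -0.08 for Bdnf and 0.05 to 0.18 for Sparc, with 1 to 2 members higher and 0 to 1 lower. The replicate numbers share no mouse. Pairs of the same number correlated at -0.23 to 0.23, and 1 of 6 correlated best with its own number. The replicate block also left out transgenic mouse 7, whose number no wild-type mouse carries. It called 5364 genes and, among the lists, also lost the calls of Il6ra, Il6st, Aplnr and Ntf5. Without transgenic mouse 7 and with no block, the calls of Fndc5, Aplnr and Ntf5 were lost too (limma adjusted p of 0.102, 0.0854 and 0.0555). The causes of these changes were not tested. Il6, Lif, Bdnf and Apln are limited by signals near background, and the Ngfr and Aplnr probes were not well above background on every array.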

Other observations

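The genes whose deviations from the group mean were most like those of Ostn over the 13 arrays, among 17134 genes, were Zfp36l2 (Pearson r = 0.95) and Rhbdf1 (0.85), with an unnamed noncoding probe between them (0.89). For Fstl1 they were 2810001G20Rik (0.94), Ppp1r27 (0.91) and Plaa (0.91), and for Sparc Hsd17b14, Snf8 and Tnnt3 (0.89 each). These are the highest of many values over arrays that share a reference pool and are descriptions with no test.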
